A study of Mus musculus with 12 samples.

Results

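Chromatin accessibility of mitotic and asynchronous G1E-ER4 cells was compared from their DNase-seq peak lists, 3 for each stage, which are 6 of the 12 samples of the series. The samples were chosen by their labels: every library of the G1E-ER4 line entered, and the 6 libraries of the parental G1E line served only for comparison. DNase-seq maps the places where the enzyme DNase I cuts chromatin most readily. G1E is a mouse erythroid line of 129 strain background that lacks GATA-1, and G1E-ER4 is its subline with an inducible GATA-1, labelled Ter119+CD71+. All 6 G1E-ER4 cultures, asynchronous ones included, received 100 nM estradiol for 22 h, so no library here shows the line without restored GATA-1. The mitotic cells were also given 200 ng/ml of the microtubule poison nocodazole for 7 h and were sorted by flow cytometry for histone H3 phosphorylated at serine 10. The asynchronous cells were not sorted and were not given nocodazole, so effects of mitosis, of the drug and of the sort cannot be told apart. Both kinds of cells were lightly fixed with formaldehyde, and DNA from 3 DNase I concentrations was chosen for each condition. The labels give 2000000 to 10000000 asynchronous cells per digestion and 2000000 mitotic cells. Whether the 3 replicates of a stage were separate cultures is not in the labels, so p-values cover only the spread among these libraries, and that spread may be technical. The lists name no genes, and the erythroid and mitotic identity of the cells was not checked from them.

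An accessible site is usually a stretch of promoter or enhancer where nucleosomes have been moved aside by bound transcription factors. GATA-1 binds such sites in maturing red cells, where it turns on erythroid genes and turns off progenitor genes. During mitosis chromosomes condense, transcription largely stops and many factors leave the DNA, yet part of the accessible chromatin is known to persist. Asynchronous against mitotic lists ask which sites persist in this line, which are missing, and whether the sites that persist change in strength, width or the position of the most cut base.

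Every list held 100000 peaks, of which 99347 to 99637 lay on chromosomes 1 to 19 and were used. Each peak has a start, an end, a summit (its highest point) and a signal given by the authors' peak caller. The signal was used only to rank the peaks of a list, rank 1 being the strongest, because its normalization is not stated. Read depth is unknown from such files. The peak names carry a running number, which shows that at least 437412 to 548977 peaks were called per library before each list was limited to 100000, so a missing peak may lie below that limit. Signal fell off less along the mitotic lists. The signal at rank 10000 was 4.25, 3.82 and 3.92 times that at rank 100000 in asynchronous replicates 1 to 3, and 2.27, 2.07 and 2.10 times in mitotic replicates 1 to 3. These values do not overlap between stages, and they move with every loss and gain given here. Their part in those results was not tested.

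Asynchronous replicate 1 stood apart from the other lists. Its median peak width was 1195 bp, against 620 and 605 bp in asynchronous replicates 2 and 3, and its peaks covered 180 Mb against 88.0 and 83.9 Mb. The mitotic lists had median widths of 923, 638 and 472 bp and covered 146, 88.9 and 64.7 Mb. Replicate 1 was thus the widest list of its stage in both stages, and the ranges of the stages overlapped. The mean of the 3 medians was 807 ± 336 bp in asynchronous and 678 ± 228 bp in mitotic lists (SD, n = 3 each). The difference of -129 bp was smaller than the spread between replicates (exact permutation test, two-sided, p = 0.7; 0.1 is the smallest p that 20 arrangements allow). It turned to 65.2 bp without asynchronous replicate 1 and was -26.2 bp without mitotic replicate 3. Asynchronous replicate 1 also had 5.11% of its peaks on chromosome 12, against 9.30% and 9.57% in the other asynchronous lists and 8.95% to 9.86% in the mitotic ones.

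**Figure D1:**
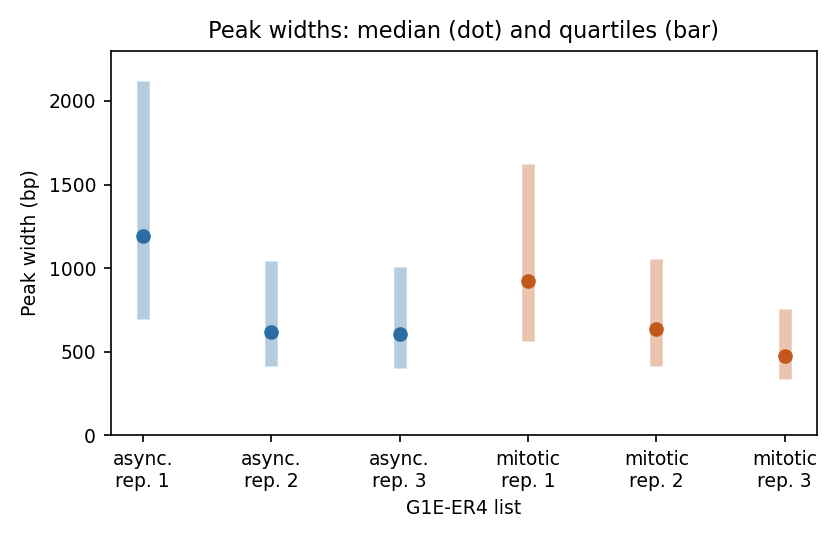
Peak width in bp for each of the 6 G1E-ER4 lists, with a dot at the median and a bar from the lower to the upper quartile over the 99347 to 99637 peaks of the list. The median of 1195 bp in asynchronous replicate 1 lies above the other 5, and the widths vary as much within a stage as between stages.

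Merging the 6 lists where peaks shared at least 1 bp gave 186121 regions. Of these, 25334 (13.6%) had a peak in all 6 lists and are called shared. They make up 60.5% of the 41888 regions found in all 3 asynchronous lists and 74.5% of the 33993 regions found in all 3 mitotic lists. Regions held by all 3 asynchronous and no mitotic lists, called lost, numbered 5194, which is 2.79% of all regions and 12.4% of the regions of all 3 asynchronous lists. The opposite pattern, called gained, was seen in 1184 regions, which is 0.636% of all regions and 3.48% of the regions of all 3 mitotic lists. Loss was therefore the more frequent pattern, by number and as a share. Many more regions came from a lone list, 41224 from an asynchronous and 46798 from a mitotic one. Presence was counted and not tested region by region, because 3 lists against 3 cannot give an exact p below 0.1.

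**Figure D2:**
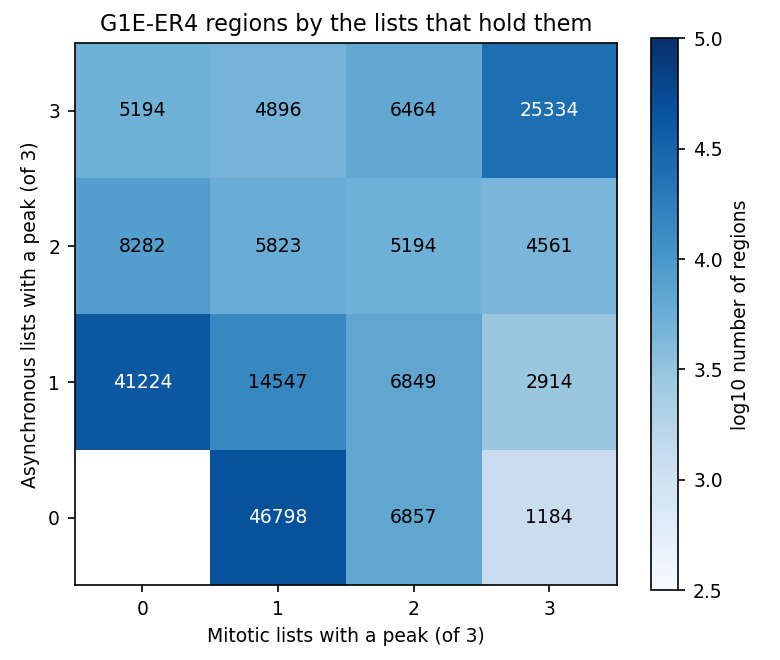
Number of G1E-ER4 regions by how many of the 3 asynchronous lists (vertical axis) and of the 3 mitotic lists (horizontal axis) hold a peak there, with colour for the log10 of the number. The corner of all 6 lists holds 25334 regions, the corner of asynchronous lists alone 5194 and the corner of mitotic lists alone 1184.

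The counts of lost and gained regions depend on single libraries. Lost regions numbered 8600 without asynchronous replicate 1 and 8674 without asynchronous replicate 2. Gained regions numbered 3463 and 1815 without these lists, and 2660, 4295 and 3646 without mitotic replicates 1, 2 and 3. Loss stayed the more frequent pattern in each of the 6 cases where 1 library was left out.

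Few of the strongest sites were missing from mitosis. Among the 9283 regions of all 3 asynchronous lists whose mean rank was 10000 or better, 1 was lost, and each mitotic list held 99.6% to 100.0% of them. At mean ranks of 10000 to 20000, 331 of 7554 regions were lost (4.38%). At mean ranks of 20000 to 30000 it was 1026 of 6205 (16.5%), and at 40000 to 50000 it was 991 of 4852 (20.4%). Lost regions had a median mean rank of 41995, and 332 of the 5194 (6.39%) had a mean rank of 20000 or better. In the single lists their median ranks were 43143, 37362 and 32614, and 8.03% to 12.2% of them lay below rank 80000. Most lost sites were thus of middle rank in asynchronous cells and not at the end of the lists. The definition bears on this, since few regions of all 3 asynchronous lists lie at the end. At mean ranks of 80000 to 100000 there were 496 of them, and 145 were lost (29.2%), the highest share of any rank class.

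A stricter rule took only sites strong in one stage and searched the whole lists of the other stage for them. Of 14857 regions formed by the 20000 highest peaks of all 3 asynchronous lists, 139 (0.936%) had no peak in any whole mitotic list. In the other direction, 1 of 11249 regions (0.00889%) had none in any whole asynchronous list. With the 50000 highest peaks the counts were 2050 of 27465 (7.46%) and 99 of 20960 (0.472%). In both settings, chosen after seeing the data, loss exceeded gain.

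Peak width separated the asynchronous sites that were lost from those that were not. Lost regions had a median peak width of 477 bp, against 1249 bp for shared regions and 916 bp for all regions of the 3 asynchronous lists. These widths are over all lists with a peak, mitotic ones included. In asynchronous replicates 1 to 3 alone, the medians were 592.5, 433 and 452 bp for lost and 2158.5, 1149 and 1098 bp for shared regions. At mean ranks of 30000 to 40000, 846 of 2003 regions with peaks under 700 bp were lost (42.2%), 173 of 2137 with peaks of 700 to 1500 bp (8.10%), and 8 of 1105 with peaks over 1500 bp (0.724%). In every rank class from 10000 on, the share lost was highest for peaks under 700 bp.

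A wide region is overlapped more readily than a narrow one, so recovery was set against a replicate of the same stage. Regions of 2 asynchronous lists were searched for in the asynchronous list not used to define them, called left-out, and in every mitotic list, for each choice of the left-out list. Each asynchronous value comes from 1 set of regions, and each mitotic value is the mean over the 3 sets. The sets share lists, so the SDs of the stages do not measure the same spread. At mean ranks of 20000 to 40000, sites under 700 bp were found in the left-out asynchronous replicates 1, 2 and 3 in 86.9%, 92.8% and 95.8% of cases, and in mitotic replicates 1, 2 and 3 in 31.3%, 41.2% and 34.5%. The means were 91.8% ± 4.54 and 35.7% ± 5.07 (SD, n = 3 each), and the stages did not overlap. Sites over 1500 bp were found in 98.9%, 95.6% and 93.0% of cases in the asynchronous and 96.4%, 95.9% and 89.4% in the mitotic lists, and these ranges overlapped. Sites of 700 to 1500 bp lay between, at 93.0% ± 1.21 and 63.0% ± 6.67 (SD, n = 3 each).

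The same order appeared over all ranks. Sites under 700 bp were found in 77.0% ± 2.20 of cases between asynchronous lists and 40.1% ± 3.83 in mitotic lists, whereas sites over 1500 bp were found in 93.6% ± 4.96 and 93.7% ± 3.72 (SD, n = 3 each). The deficit in mitosis was 36.9 percentage points larger for narrow than for wide sites, a difference of -36.9 points (mitotic minus asynchronous, narrow minus wide). This comparison was added after seeing the data. Its exact permutation test, two-sided, gave p = 0.05, the smallest that 20 arrangements allow and not under the threshold of 0.05. The value was -54.2 at mean ranks of 20000 to 40000. It was -9.14, -22.4 and -21.7 without asynchronous replicates 1, 2 and 3, where the sites come from lists taken alone, and -36.3 to -37.6 without a mitotic replicate.

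Searching for the summit in place of any overlap kept the loss of narrow sites and lowered the recovery of wide ones in both stages. At mean ranks of 20000 to 40000, a summit within 150 bp was found for narrow sites in 87.8% ± 8.24 of cases between asynchronous lists and in 31.7% ± 6.51 in mitotic lists (SD, n = 3 each). For sites over 1500 bp the shares were 32.5% ± 9.27 and 30.2% ± 2.47 (SD, n = 3 each). The summits of wide sites of this rank were thus poorly repeated even within asynchronous cells. Overlap there shows that the wide region was marked again and not that the same position was the most cut.

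**Figure D3:**
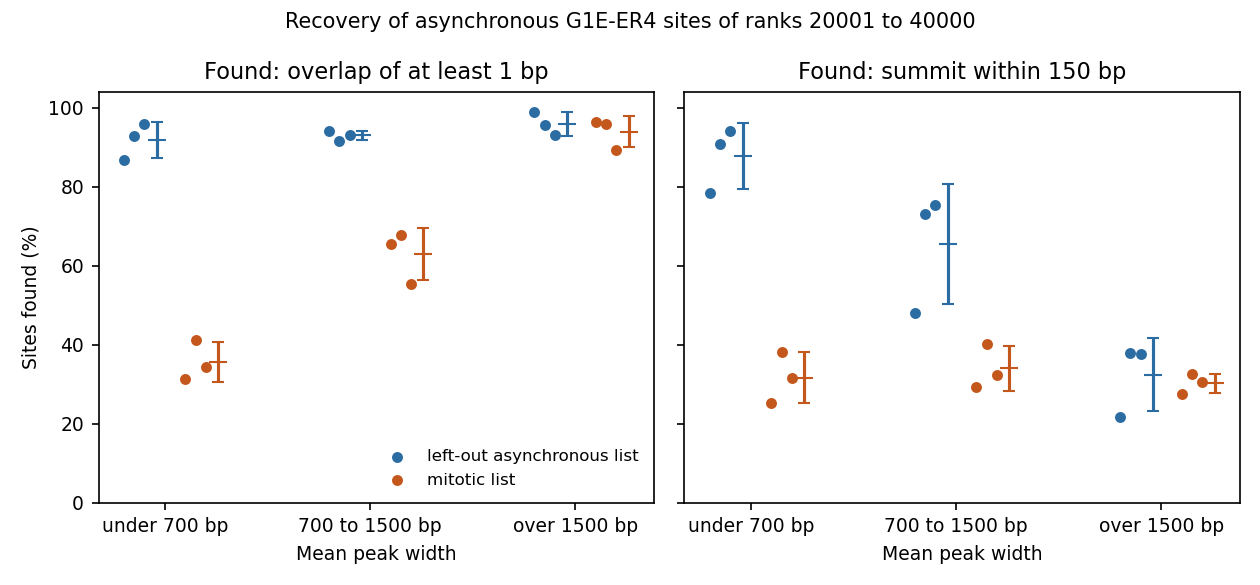
Share of asynchronous G1E-ER4 sites of mean ranks of 20000 to 40000 found again (vertical axis, percent), by mean peak width, in the left-out asynchronous list (blue) and in the mitotic lists (orange), with a dot per list and bars for the mean ± SD of 3 lists. Narrow sites fall from 91.8% to 35.7% by overlap and from 87.8% to 31.7% by summit, and wide sites stand at 95.9% and 93.9% by overlap.

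The 6 lost regions with the best mean rank show what loss of a well reproduced site looks like. The first lay at chr12:111691872-111693390 and had ranks 11125, 6639 and 11661 in asynchronous replicates 1 to 3. Its summit lay 741, 762 and 753 bp from the region's start. No mitotic list had a peak there, and neither did the pooled mitotic list. The next, chr11:74432569-74433575, had ranks 7605, 13621 and 10905. The region chr3:146577373-146578469 had ranks 11696, 11796 and 11286, with summits at 146577975, 146577970 and 146577975. The spread of its ranks was the smallest of the 6.

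The others were chr4:42873271-42873917, chr5:108429780-108430525 and chr2:24817696-24818380, with mean ranks 12171 ± 1930, 12258 ± 1344 and 12346 ± 1598 (SD, n = 3). Mean widths were 598 to 894 bp, and 4 of the 6 were under 700 bp. Each was present in all 3 asynchronous lists of the parental G1E line. They were absent from the mitotic lists of G1E-ER4 but not from those of G1E, where 3 of 3 lists held those on chromosomes 12, 11, 3 and 2, and 2 of 3 held those on chromosomes 4 and 5.

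By definition no mitotic peak overlapped a lost region. The nearest mitotic summit lay at a median of 5762, 5656 and 6025 bp from a lost region's summit in mitotic replicates 1 to 3. A summit within 1 kb was found for 3.04% to 3.18% of them and within 5 kb for 42.8% to 45.4%. For 18.8% of lost regions the nearest region of all 3 asynchronous lists was also lost, against 12.4% of those regions that were lost. The longest run held 7 in succession, at chr3:153011248-153262630. The authors' pooled mitotic list held 432 of the lost regions (8.32%), and 4762 were absent from it too.

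Gained regions were weaker and rarer. Their median mean rank in the mitotic lists was 58765, their median peak width 585 bp, and 6 of the 1184 had a mean rank of 20000 or better. None of 8190 regions with a mean mitotic rank of 10000 or better was gained, and 91 of 368 (24.7%) were at mean ranks of 80000 to 100000. The pooled asynchronous list, which joins the replicates, held 246 gained regions (20.8%). The matching share of lost regions in the pooled mitotic list is 8.32%.

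The best ranked gained regions were uneven between the mitotic lists. The first, chr12:98565791-98566275, had ranks 13267, 25210 and 1831 in mitotic replicates 1 to 3. The region chr2:24104740-24105403 had ranks 25070, 26060 and 3608, and chr12:59815431-59815905 had 10563, 45283 and 1699. In these 3 regions mitotic replicate 3 held the strongest peak by far. The region chr1:58707807-58708762 was more even, with ranks 11410, 12640 and 19347. It was in no asynchronous and in 3 mitotic G1E lists, but the pooled asynchronous G1E-ER4 list had a peak there. The remaining pair, chr15:101175895-101176519 and chr17:17984404-17985274, had mean ranks of 15939 ± 4678 and 19248 ± 6252 (SD, n = 3). The pooled asynchronous list held the one on chromosome 15 and not the one on chromosome 17.

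Among the 25334 shared regions, ranks were repeated better between asynchronous lists than between stages. Over these regions, the median absolute log2 change in rank was 0.33 to 0.56 between 2 asynchronous lists, 0.57 to 0.69 between 2 mitotic lists and 0.63 to 0.94 between lists of different stages. The ranges of mitotic pairs and pairs of different stages overlapped. The 3 strongest shared regions hardly moved. The strongest, chr9:3002004-3003294, had rank 1 in all 6 lists. The next, chr9:3000001-3001589, had ranks 3, 2 and 2 in the asynchronous and 2, 2 and 2 in the mitotic lists, and chr13:9010655-9011547 had ranks 5, 3 and 3 and 3, 4 and 7. These 3 regions were also in all 3 lists of each stage in G1E. Whether they are regulatory sites or places of high signal for another reason was not checked, so they do not show that such sites persist.

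The rank fit called 178 shared regions (limma on log2 rank, Benjamini-Hochberg adjusted p under 0.05). Of these, 130 moved down the lists in mitosis (0.513% of those tested) and 48 moved up (0.189%). At an unadjusted p under 0.05 there were 6052 (23.9%), and in 7274 (28.7%) the 3 ranks of a stage did not overlap those of the other. The median log2 change over all shared regions was -0.03. The regions that moved down had median ranks of 10927, 11129 and 10799 in the asynchronous and 52090, 49771 and 55010 in the mitotic lists. The regions that moved up went from 6569, 5620 and 7505 to 1359, 1039 and 1003. The number of calls changed with the libraries used: there were 0 without asynchronous replicate 2 or 3 or mitotic replicate 2 or 3 (3590 to 6856 at an unadjusted p under 0.05), 74 without asynchronous replicate 1 and 490 without mitotic replicate 1. There were also 0 when only the 50000 highest peaks were used (4119 at an unadjusted p under 0.05) or when rank itself took the place of its log2 (4947), so the regions named next are calls of the log2 fit on whole lists.

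The region that moved down most lay at chr2:167576910-167594143. Its strongest peak had ranks 171, 148 and 174 in asynchronous replicates 1 to 3 and 3927, 1564 and 2270 in mitotic ones. All mitotic ranks were lower in the list than all asynchronous ones, by 14.7-fold in rank number (log2 change 3.88 ± 0.55 SE, limma adjusted p = 0.0454). The summit of that peak lay at 13899 to 13929 bp from the region's start in the 6 lists, so the same place was ranked in both stages.

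The others that moved down were chr6:82996724-83012173, chr10:76721236-76735239 and chr2:165812293-165822638. The chromosome 10 region went from ranks 67, 90 and 72 to 1986, 699 and 780 (log2 change 3.76 ± 0.71 SE, limma adjusted p = 0.0454). The remaining pair went from mean ranks of 183 ± 37.9 and 311 ± 221 to 2579 ± 568 and 2642 ± 416 (SD, n = 3 each). All 4 had asynchronous ranks of 505 or better, all span over 10 kb with several peaks in most lists, and none had a mitotic rank beyond 3927.

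Unlike these 4, the moved-down regions as a whole were narrower than those that moved up, with a median peak width of 796 bp against 1328 bp. These widths include the mitotic lists and are thus not independent of what changed in mitosis. In the asynchronous lists alone the medians were 1550.5, 948.5 and 977.5 bp against 1620, 1516.5 and 1202.5 bp, and these ranges overlapped. In the mitotic lists they were 776.5, 518 and 480.5 bp against 1896, 1006.5 and 892.5 bp, with no overlap. Of the 4 regions that moved up most, one of 523 bp on chromosome 18 had ranks 12788, 1733 and 9198 in the asynchronous and 709, 353 and 190 in the mitotic lists (log2 change -4.02 ± 0.73 SE, limma adjusted p = 0.0454). Its asynchronous ranks were widely spread, yet all mitotic ranks were better. The region chr13:23665769-23666500 was the steadier case, with 9025, 6220 and 8114 against 659, 608 and 1009 (log2 change -3.38 ± 0.41 SE, limma adjusted p = 0.0355). The regions chr10:81031081-81036808 and chr6:47543689-47546137 went from mean ranks of 808 ± 88.9 and 1523 ± 445 to 65.0 ± 29.5 and 122 ± 46.3 (SD, n = 3 each). All 8 regions named for their rank were present in all 3 lists of each stage in G1E.

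**Figure D4:**
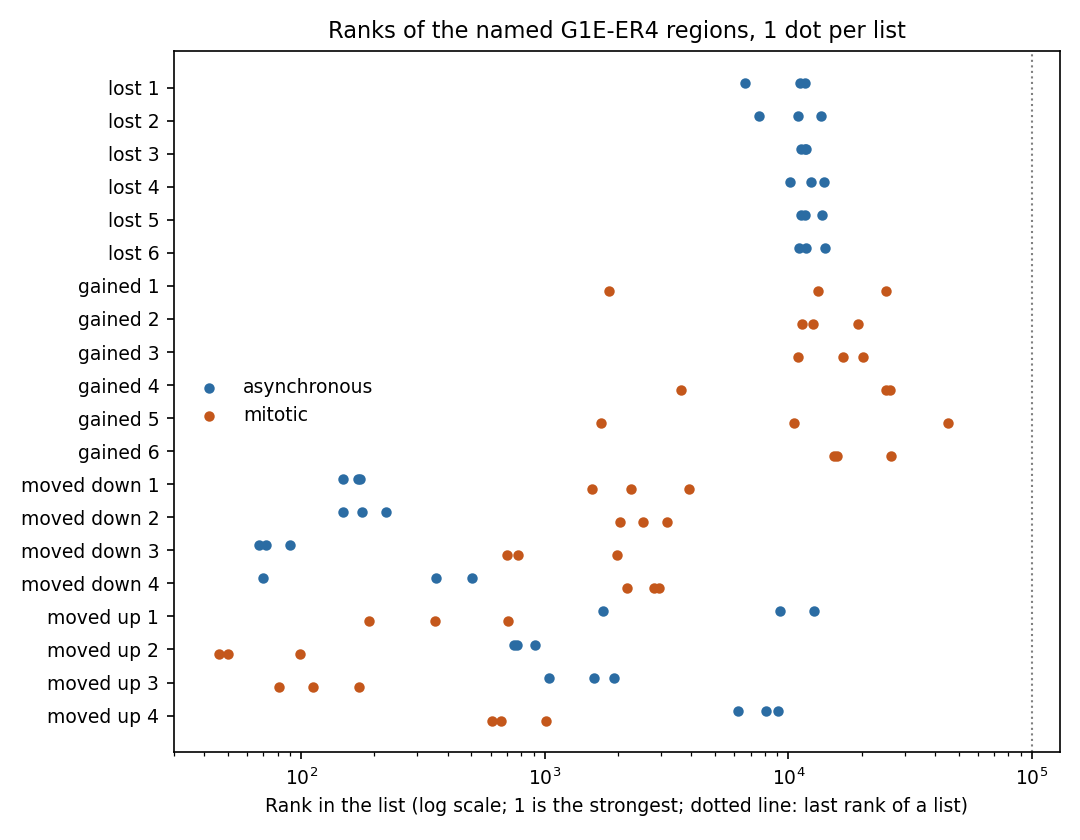
Rank in the list (log scale, 1 is the strongest) of the named lost and gained regions and of the shared regions named for their rank, with a dot per asynchronous (blue) or mitotic (orange) list. Lost and gained regions have dots of their own stage only, and the first moved-down region goes from ranks 148 to 174 to ranks 1564 to 3927.

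Over all shared regions, the narrow ones tended to move down and the wide ones up, but the called regions did not follow this order in every class. Shared regions with peaks under 700 bp had a median log2 rank change of 0.32, and 63.6% of these 4033 had a larger rank number in mitosis. The medians were -0.03 at 700 to 1500 bp, -0.16 over 1500 to 3000 bp and -0.39 over 3000 bp, where 35.3% of 1873 had a larger rank number. The narrow class had median ranks of 17607, 16887 and 17218 in the asynchronous and 27897, 23430 and 27591 in the mitotic lists, so its stages did not overlap. The class over 3000 bp had 9434, 10976 and 12010 against 7264, 8443 and 9618, and these did overlap. Among the called regions, 53 moved down and 10 up under 700 bp, 53 and 17 at 700 to 1500 bp, 14 and 17 over 1500 to 3000 bp, and 10 and 4 over 3000 bp. Width was the median over the 6 lists here, and these values are a description with no test. The classes thus hold the mitotic widths and are not independent of what changed in mitosis. How much of the order comes from this was not tested.

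Peak width itself gave no calls. The width fit called 0 of 25334 shared regions wider (0.0%) and 0 narrower (0.0%) in mitosis (limma on log2 width, Benjamini-Hochberg adjusted p under 0.05). At an unadjusted p under 0.05 there were 45 wider and 1288 narrower regions, and in 2987 (11.8%) the stages did not overlap. The median log2 change in width was -0.27. Median widths over the shared regions were 2159, 1149 and 1098 bp in the asynchronous and 1923, 1058 and 753 bp in the mitotic lists. These lists overlap, and the widths of the 2 stages differ by less than those of the replicates within a stage.

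The region with the largest narrowing among those whose stages did not overlap, chr12:107480722-107485138, did not pass the test. Its strongest peak measured 4417, 3551 and 2601 bp in the asynchronous and 640, 502 and 299 bp in the mitotic lists (log2 change -2.91 ± 0.47 SE, limma adjusted p = 0.729). Its summit lay 931, 1541 and 1636 bp from the region's start in the asynchronous and 4174, 2788 and 4137 bp in the mitotic lists, so the strongest peaks of the stages lay in different places. Of the 3 with the largest widening, none of which passed, chr12:113227420-113231351 measured 463, 606 and 615 bp in asynchronous and 3932, 1864 and 1544 bp in mitotic lists (limma adjusted p = 0.729). The other named ones were chr2:179667292-179680846 and chr2:169937428-169948587, with log2 changes of -2.86 and -2.66, and chr1:39020070-39026274 and chr4:154633659-154643098, with 2.32 and 2.24.

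Most summits stayed close to their place. In the 8097 shared regions with 1 peak in every list, the median distance between the summits of 2 lists was 12 to 18 bp for asynchronous pairs, 20 to 24 bp for mitotic pairs and 19 to 25 bp for pairs of different stages. Pairs of different stages were thus no farther apart than mitotic pairs, and asynchronous pairs were the closest. The mean over pairs of different stages exceeded that over pairs of the same stage by 3.00 bp (exact permutation test, two-sided, p = 0.1, the smallest that 20 arrangements allow). The excess was 1.00 bp without asynchronous replicate 2 or 3 and 5.75 bp without mitotic replicate 2. Between the mean summits of the stages the median shift was 16.3 bp, and 62.3% of the regions shifted by 25 bp or less. A mean shift over 150 bp was seen in 1014 regions (12.5%). Between single lists, summits were over 150 bp apart in 10.6% to 12.8% of regions for asynchronous pairs, 14.8% to 16.3% for mitotic pairs and 13.9% to 17.4% for pairs of different stages.

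The summit fit called 57 of 8097 regions (0.704%; limma on summit position, Benjamini-Hochberg adjusted p under 0.05), and 641 (7.92%) had an unadjusted p under 0.05. In 1301 regions (16.1%) the stages did not overlap. The median shift of the called regions was 371 bp. The largest was at chr1:58213377-58216154, where the summit lay 462, 442 and 429 bp from the region's start in the asynchronous and 2431, 2383 and 2185 bp in the mitotic lists. The stages were far apart and the replicates close together (shift 1889 ± 69.0 bp SE, limma adjusted p = 0.000727). Peak widths were 1150, 431 and 646 bp in the asynchronous and 669, 1334 and 761 bp in the mitotic lists. At these widths most peaks of 1 stage could not reach those of the other. The shift is thus mainly between different peaks that merging joined. The peaks were of low to middle rank, at 50100 to 67487 in asynchronous and 23838 to 39693 in mitotic lists.

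The region chr7:87212713-87216170 shifted by 1693 ± 79.4 bp (SE, limma adjusted p = 0.00153), from 1450, 1720 and 1497 bp to 3196, 3275 and 3276 bp. Peak widths there were 3452, 1552 and 644 bp in the asynchronous and 2286, 466 and 569 bp in the mitotic lists. Some of these peaks lay apart, such as those of asynchronous replicate 3 and mitotic replicates 2 and 3. The other named ones were chr12:29499932-29502656, with a shift of -1780 ± 194 bp, and chr2:178603741-178606326, with 1381 ± 152 bp (SE, limma adjusted p = 0.0430 and 0.0440). Some peaks of the 2 stages lay apart in these regions too. Leaving out a library gave 78 to 127 calls, over 1.5 times as many without asynchronous replicate 1 (121) or mitotic replicates 1, 2 or 3 (112, 127 and 124), where more regions were tested.

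Peak density differed between the stages in some parts of the genome. Of 1507 bins of 1 Mb, 37 held more peaks in mitosis (2.46%) and 31 fewer (2.06%; limma on log2 of peaks + 1, Benjamini-Hochberg adjusted p under 0.05). At an unadjusted p under 0.05 there were 385, and in 425 (28.2%) the stages did not overlap. Of the 37 denser bins, 19 lay on chromosome 1 and 6 on chromosome 12, while chromosome 10 had 7 of the 31 sparser ones. The bins tested numbered 147 on chromosome 1, 89 on chromosome 12 and 67 on chromosome 10. Asynchronous replicate 1 had a low share of its peaks on chromosome 12, and its part in that count was not tested. There were 0 calls without asynchronous replicate 3 or any 1 of the mitotic replicates (239 to 379 at an unadjusted p under 0.05 in limma), 0 with bins of 5 Mb (96) and 214 without asynchronous replicate 1. As every list has the same number of peaks, more peaks in a place mean fewer elsewhere.

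The bin with the largest rise, chr1:32000001-33000000, held 2, 3 and 0 peaks in the asynchronous and 22, 10 and 25 in the mitotic lists (log2 change 3.03 ± 0.62 SE, limma adjusted p = 0.0290). The bins chr1:56000001-57000000 and chr1:70000001-71000000 went from means of 8.67 ± 7.64 and 4.33 ± 2.89 peaks to 43.0 ± 14.1 and 25 ± 12.8 (SD, n = 3 each). The sparser bins were the more even between replicates. In chr10:43000001-44000000 there were 22, 22 and 23 peaks in the asynchronous and 9, 4 and 7 in the mitotic lists (log2 change -1.66 ± 0.32 SE, limma adjusted p = 0.0261). In chr10:59000001-60000000 there were 34, 35 and 36 against 15, 14 and 8 (limma adjusted p = 0.0241). The last, chr1:187000001-188000000, went from 48.3 ± 15.9 to 17.7 ± 2.31 (SD, n = 3 each).

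Over chromosome 1 as a whole, the share of peaks was 9.72%, 11.10% and 11.04% in the asynchronous and 12.4%, 11.6% and 14.1% in the mitotic lists. The stages did not overlap, but the exact permutation test, two-sided, reached its smallest p of 0.1 (Benjamini-Hochberg adjusted over 19 chromosomes 0.475). Along it the change ran in opposite directions. From 40 to 60 Mb there were 370, 919 and 854 peaks in the asynchronous and 1379, 1073 and 1515 in the mitotic lists. From 180 to 200 Mb there were 1852, 914 and 927 against 699, 756 and 759. Asynchronous replicate 1 had the lowest count of the 6 lists in the first window and the highest in the second.

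Lost and gained regions were unevenly spread over the chromosomes. Of the 1184 gained regions, 373 lay on chromosome 1, which is 9.13% of its regions of all 3 mitotic lists, and 200 lay on chromosome 12 (6.18%). On the other chromosomes the share was 1.45% to 5.53%. Lost regions made up 4.65% of the regions of all 3 asynchronous lists on chromosome 12, the lowest share of the 19, and 17.7% on chromosome 3, the highest. Chromosome 1 had 339 lost regions (9.10%). The chromosome 12 values move with the low share of that chromosome in asynchronous replicate 1, whose part in them was not tested.

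**Figure D5:**
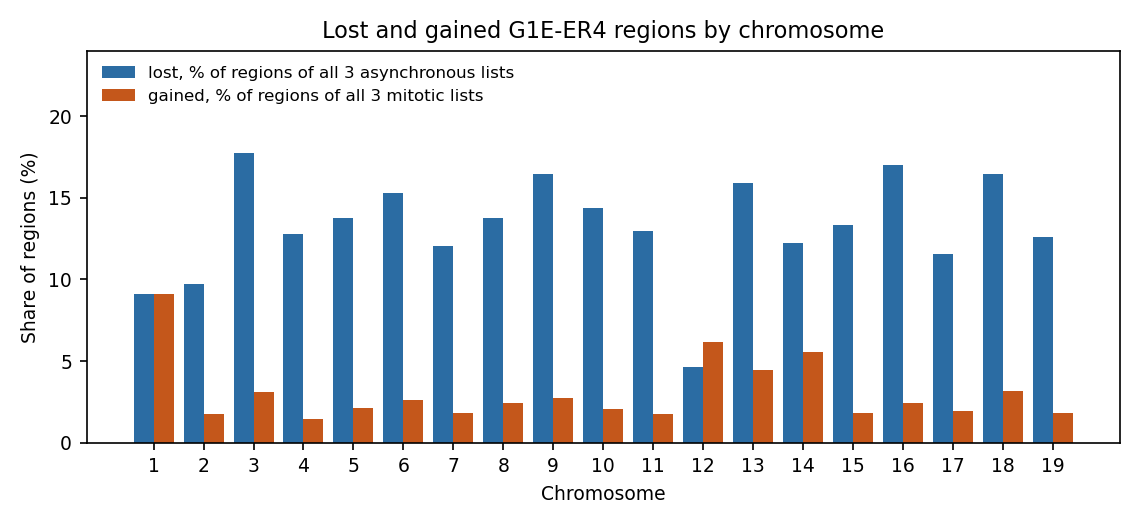
Percent of the regions of all 3 asynchronous lists that were lost (blue) and of the regions of all 3 mitotic lists that were gained (orange), for each of chromosomes 1 to 19 of G1E-ER4. Gain is highest on chromosome 1 at 9.13% and loss lowest on chromosome 12 at 4.65%.

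Lost regions were mostly sites that the parental line also has. Of the 5194, 3299 (63.5%) were in all 3 asynchronous lists of G1E, close to the 64.8% of all regions of the 3 asynchronous G1E-ER4 lists, and 651 (12.5%) were in none. In mitotic G1E lists, 2087 of the lost regions (40.2%) were in none and 506 (9.74%) in all 3, against 9.84% and 62.1% of all regions of the 3 asynchronous lists. By the same definition 924 of them (17.8%) were also lost in G1E, against 3.37% of all regions of the 3 asynchronous lists. The lost regions were weaker and narrower than that whole set. Their median mean rank was 41995 against 30132, and their median peak width 477 bp against 915.5 bp. No set matched in rank and width was compared. Of the 1184 gained regions, 711 (60.1%) were in no asynchronous G1E list, against 20.3% of all regions of the 3 mitotic lists. Gained regions had a median mean rank of 58765, against 29163 for all regions of the 3 mitotic lists, and no set matched in rank was compared. A count of 73 (6.17%) were also gained in G1E, which is no more than the 8.82% among all those regions.

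Sites common to both lines were compared with sites of G1E-ER4 alone. Regions of 2 asynchronous G1E-ER4 lists that at least 2 asynchronous G1E lists held were found in 92.4% ± 1.95 of cases between asynchronous lists and 72.6% ± 3.21 in mitotic lists. Regions that no asynchronous G1E list held were found in 64.1% ± 15.8 and 61.3% ± 11.6 of cases (SD, n = 3 each). In the latter group the left-out asynchronous replicates 1 to 3 gave 82.4%, 54.6% and 55.4%, a wide spread that overlapped the 72.1%, 62.8% and 49.0% of the mitotic lists. The deficit in mitosis differed by -17.0 points between the groups, which did not pass (exact permutation test, two-sided, p = 0.2). It turned to 11.1 points at mean ranks of 20000 or better (p = 0.05, the smallest the exact test allows). Few sites of G1E-ER4 alone were that strong: 7 to 16 at mean ranks up to 10000 and 124 to 191 from 10000 to 20000. Within these classes the deficit was -0.40 points for the common sites and 0 for the others, and then -18.7 and -21.2 points.

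No difference between the lines in the effect of stage passed a test, the chromosome shares being adjusted over 19 chromosomes. In G1E the narrow-against-wide difference in deficit was -33.9 points, and G1E-ER4 differed from it by -3.04 points (exact permutation test over 400 arrangements, two-sided, p = 0.86). The stage effect on the median peak width was -129 bp in G1E-ER4 and 265 bp in G1E, a difference of -394 bp (p = 0.19, the same exact test). The excess in summit distance, over 3210 regions with 1 peak in all 12 lists, was 2.11 bp in G1E-ER4 and 3.17 bp in G1E (difference -1.06 bp, exact p = 0.62). The share of peaks on chromosome 1 moved by 2.09 points in G1E-ER4 and by -2.84 points in G1E. That difference of 4.93 points did not pass (exact permutation test, two-sided, p = 0.06, Benjamini-Hochberg adjusted over 19 chromosomes 0.162). Chromosomes 5, 3, 13 and 11 had exact p of 0.01, 0.025, 0.035 and 0.04 in the same permutation test, and these too had adjusted values of 0.162.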

How the data were processed

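DNase-seq peaks of 6 G1E-ER4 libraries, and of 6 G1E libraries for comparison, were read as deposited: a list of 100000 peaks for each library, and for each group a list the authors made from pooled replicates. Bowtie and mm9 are named in the submitters' processing notes; its version, the peak caller and the filters were not given in the sources used here, nor was the unit of signal. The signal of a peak is the value in the authors' deposited lists, with unstated normalization. Read depth is unknown, so no counting interval could be given. Positions are on mm9, counted from 1, on chromosomes 1 to 19. No genome or annotation of that build was used here, so regions carry no gene, sequence or annotation.

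Regions were the union of the 6 lists, merged at 1 bp. Rank and width of a region in a list are those of its strongest peak. Bins needed at least 10 peaks on average, and a pseudocount of 1 was added before log2. Fits used limma 3.58.1 (R 4.3.3, eBayes with trend, 3 against 3 lists, no covariate), adjusted by Benjamini-Hochberg over all features, threshold 0.05. A few identical summits had a variance of 0, which limma offsets. Other tests were exact permutation tests over lists, two-sided, written in Python 3.11.15 with numpy 2.4.6, on tables held in pandas 2.3.3. Their Benjamini-Hochberg adjustment over chromosomes used scipy 1.17.1, and plots were drawn in matplotlib 3.10.9. Scripts were tested on simulated data.

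Named regions are the 6 lost and 6 gained with the best mean rank, the 3 shared with the best mean rank, and, where the stages did not overlap, the 4 moved most up and down in rank, 3 in width each way, 4 in summit, and 3 bins each way. Members, rules and tests were chosen with earlier results of these data known. As alternatives, each library was left out in turn, and results were recomputed with the 50000 highest peaks, 300 bp around summits, cover of at least 0.5 of a region, presence in 2 of 3 lists, the pooled lists, other scalings of rank and width, larger bins, no trend and a replicate block. Chosen after seeing the data were the narrow-against-wide recovery, the 20000 or 50000 highest peaks against whole lists, and centring of shared widths.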

Additional observations from a re-analysis of the deposited data

How the results depend on the processing

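Lost regions stayed more numerous than gained ones under all alternatives run. Without 1 library there were 6458 to 8674 lost and 1660 to 4295 gained regions. With the 50000 highest peaks 654 were gained, with 300 bp around each summit 2298, and with cover of at least 0.5 of the region 648; lost regions stayed within 1.5 times in these 3 settings and against the pooled lists. Presence in at least 2 of 3 lists gave 13476 lost and 8041 gained. The highest peaks against whole lists gave 2050 and 99 (50000) and 139 and 1 (20000). The cause of these moves was not tested.

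The rank fit gave 0 to 490 calls without 1 library, 293 with ranks among shared regions, 327 in regions of 1 peak per list, and 0 with rank itself in place of its log2 or with the 50000 highest peaks (4947 and 4119 at an unadjusted p under 0.05 in limma). The width fit gave 0 calls in each alternative. The summit fit gave 78 to 127 calls without 1 library. The density fit gave 0 to 214 calls without 1 library, 161 with the 50000 highest peaks (64 denser and 97 sparser, against 37 and 31), 0 with bins of 5 Mb (96 at an unadjusted p under 0.05 in limma) and 5 with base pairs covered. A fit that leaves out a library has 2 lists in 1 stage.

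Replicate numbers are shared between stages, but same-numbered lists deviated together with correlations of 0.388, 0.0453 and 0.172, not all over 0.1, and mitotic replicate 2 went best with asynchronous replicate 3 (0.280), so the numbers were not taken as pairs. With the replicate block the rank fit called 2560 regions, the summit fit 19, the density fit 55 bins and the width fit 0.

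Without 1 library the median width difference was -252 to 65.2 bp, the summit distance excess 1.00 to 5.75 bp, the difference by presence in G1E -27.1 to -11.7 points, the narrow-against-wide difference -37.6 to -9.14 points, and the line differences -520 to -200 bp in width and -3.36 to 0.722 bp in summit distance. The difference by presence in G1E reversed to 11.1 at mean ranks of 20000 or better. No exact test within the line could pass 0.05. The rank limit of the lists and the unknown depth mean that a site below rank 100000 cannot be told from an absent one.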

Other observations

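Shared regions were split into more peaks in some lists than in others. Asynchronous replicate 1 had several peaks in 18.8% of the 25334 shared regions and mitotic replicate 1 in 29.9%, against 42.8% and 43.1% in asynchronous replicates 2 and 3 and 46.6% and 43.2% in mitotic replicates 2 and 3. The number followed the replicate more than the stage.

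Gained regions were also grouped. The nearest region of all 3 mitotic lists was also gained for 194 of 1184 (16.4%), against 3.48% of those regions that were gained. The longest run held 7 in succession, at chr1:76287148-77375410. On chromosome 1, the windows from 20 to 40, 40 to 60 and 60 to 80 Mb held 80, 84 and 87 of its 373 gained regions. In these windows asynchronous replicate 1 had the lowest peak counts of the 6 lists. The windows from 160 to 180 and 180 to 200 Mb held 2 and 1.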
